A study of Mus musculus with 8 samples.

Results

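Gamma crystallins were examined in the retinas of aged mice through every array probe whose RefSeq accession belongs to Cryga, Crygb, Crygc, Crygd, Cryge, Crygf, Crygn or Crygs, which gave 9 of the 56605 probes on the array for 8 of its 22911 named genes. Retinal RNA came from mice labelled as homozygous for the Mrp4 knockout and from wild-type (WT) mice, both aged 46 to 55 weeks, and was hybridized to 4 one-color arrays for each genotype. The knockout is carried by the whole animal, and the labels give no treatment for either group. Mrp4 is the common name of Abcc4, an efflux transporter of the plasma membrane. The methods name tissue from 3 mice and do not make clear whether each sample was a pool, so p-values measure the spread between these samples. The Abcc4 probe goes against the labels. Its normalized log2 signal was 10.75 ± 0.09 on the Mrp4-null-labelled arrays and 6.83 ± 0.29 on the WT arrays (SD, n = 4 each), a difference of 3.92 (adjusted p = 1.36e-05, limma), and whether the probe lies within the deleted part is not given in the sources used here. For this reason every direction below refers to the Mrp4-null-labelled arrays.

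Gamma crystallins are small, very stable structural proteins that fill the fibre cells of the lens, where their dense packing gives the lens its refractive power. Cryga to Crygf are closely related genes on chromosome 1 that are made mainly while lens fibres form early in life. Crygs lies on chromosome 16 and is known for expression that continues in the adult lens, and Crygn lies on chromosome 5 and resembles both the beta and the gamma crystallins. The alpha crystallins are chaperones of the small heat shock family, and the beta crystallins share the protein fold of the gamma crystallins. The retina is not a main site of their expression.

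The bases just before the transcription start are shown for Cryga, Crygc, Crygd and Crygs, whose joint movement over the arrays is described below, and for Crygb, a further gene of the chromosome 1 group that was measured above background on some arrays. RefSeq promoter windows on GRCm38.p6 were found for all 8 genes, and the 90 bases before the start are given 5′ to 3′, in capitals for TATATA or TATAAA and for TTTGTG.
Cryga, chr1:65103364-65103453, minus strand: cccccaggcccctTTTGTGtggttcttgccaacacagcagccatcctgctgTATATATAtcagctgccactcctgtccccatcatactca
Crygb, chr1:65082291-65082380, minus strand: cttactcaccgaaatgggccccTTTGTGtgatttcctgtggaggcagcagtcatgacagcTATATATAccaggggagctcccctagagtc
Crygc, chr1:65073533-65073622, minus strand: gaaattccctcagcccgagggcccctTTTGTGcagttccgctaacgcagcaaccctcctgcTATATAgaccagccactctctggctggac
Crygd, chr1:65063441-65063530, minus strand: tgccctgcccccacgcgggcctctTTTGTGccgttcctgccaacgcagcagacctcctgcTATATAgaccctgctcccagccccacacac
Crygs, chr16:22811411-22811500, minus strand: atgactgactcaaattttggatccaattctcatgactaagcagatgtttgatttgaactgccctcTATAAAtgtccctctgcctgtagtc
TATATA and TTTGTG were the only runs of 6 or more bases shared by all 6 chromosome 1 genes within 250 bases upstream, and they were found after these sequences had been read. On both strands of the 300-base windows, TATATA occurred in 7 of the 8 genes and in 5.67% of 32851 RefSeq promoters. TTTGTG occurred in 6 of the 8 genes and in 17.7% of all promoters. Crygs was the 1 gene with TATAAA, starting 25 bases before the start site, a run found in 13.6% of all promoters. TGCTGA, a core recognition element of Maf proteins, occurred in Cryga, Crygc, Crygn and Crygs and in 19.5% of all promoters. These matches describe the letters only, and no binding was measured.

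Signals of the gamma crystallin probes covered the whole span from background to moderate levels, and background therefore had to be read first. The processed signal is the fluorescence intensity of a spot after the scanner software had subtracted its local background. On the 308 negative control spots of each array its median was 2.66 to 2.98 and its 95th percentile 2.96 to 3.24. The lowest signal that the software marked as well above background on an array was 11.5 to 13.8, and the 75th percentile of all probes was 670 to 1068. The probes of Cryga, Crygc, Crygd and Crygs were well above background on all 8 arrays, and the 4 genes had 5 probes because Crygc had 2. These 5 were among the 37085 probes retained for testing, for which 1 genotype or both had to show the probe well above background on all of its measured arrays.

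The remaining 4 genes did not reach that level. Cryge gave signals of 2.39 to 3.14 and was never marked as well above background. Crygf gave 2.50 to 3.69 on 7 arrays and 7.17 on WT 3, and it too was well above background on none. Both genes thus had only an upper bound in either genotype, and no difference between genotypes can be given.

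Crygn passed on WT 1 and WT 2 alone. Its signals on the Mrp4-null-labelled arrays were 11.1, 8.69, 8.12 and 12.3. On the WT arrays they were 19.1, 31.9, 5.50 and 5.45. WT 1 and WT 2 were the highest arrays of Crygn, and the groups overlapped, since WT 3 and WT 4 were as dim as the Mrp4-null-labelled arrays. No fold is given, because neither group was above background throughout.

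Crygb was the dim probe with the clearest difference. Its signals on the Mrp4-null-labelled arrays were 9.66, 6.41, 4.62 and 2.95, so that none was well above background. On the WT arrays they were 37.7, 42.7, 10.1 and 21.2, and all but WT 3 were well above background. The groups did not overlap, although the gap between Mrp4-null 1 and WT 3 lay within the range marked as background. In that direction 2.36% of the retained probes measured on every array did not overlap, a set that does not hold Crygb. Normalized over all probes, the log2 signals of Crygb on WT 1, WT 2 and WT 4 were 5.11, 5.28 and 4.72, where the mean detection limit of the Mrp4-null-labelled arrays was 3.50. No fold is given, because WT 3 was not above background either. The fit over all probes without a filter gave an adjusted p of 0.205 (limma), above the threshold of 0.05.

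**Figure D1:**
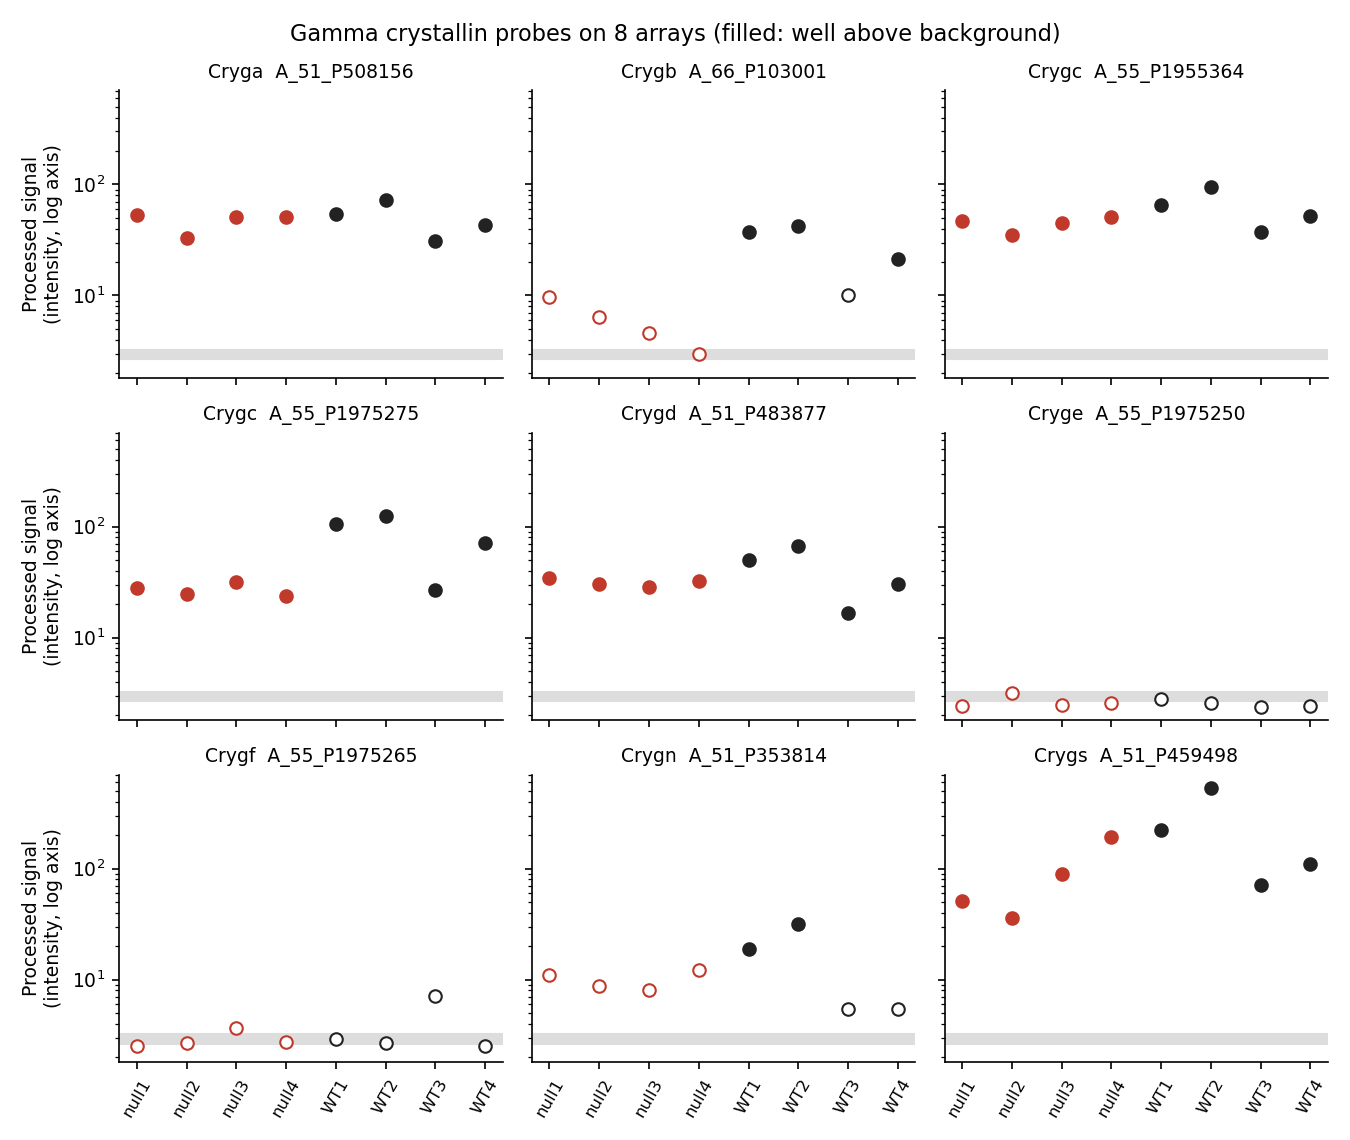
Processed signal (intensity, log axis) of each of the 9 gamma crystallin probes on the 4 Mrp4-null-labelled arrays (red) and the 4 WT arrays (black), 1 point per array, filled where the probe was well above background, with the gray band from the lowest median to the highest 95th percentile of the negative controls. Cryge stayed in or under the band, Crygf lay above it on 2 arrays without being marked as measured, Crygb and Crygn were measured on WT arrays alone, and the other 5 probes were measured on every array.

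Of the 5 retained probes, Crygc A_55_P1975275, a probe of the gamma C crystallin gene, had the largest difference on all 8 arrays, with Crygs close behind. The order turned with normexp (-0.68 against -0.85 for Crygs), without Mrp4-null 4 (-1.47 against -1.78) and without WT 4 (-1.45 against -1.49). Normalized log2 signals on the Mrp4-null-labelled arrays were 4.62, 4.84, 4.72 and 4.51. On the WT arrays they were 6.61, 6.78, 5.00 and 6.43. The 4 Mrp4-null-labelled arrays lay close together and under every WT array, while WT 3 lay far under the other WT arrays and near the Mrp4-null-labelled ones. Means were 4.67 ± 0.14 and 6.20 ± 0.81 (SD, n = 4 each), so the signal was 2.89-fold higher on the WT arrays. The log2 difference was -1.53 (SE 0.35, 95% interval -2.33 to -0.73, limma), with an unadjusted p of 0.00199 and an adjusted p of 0.173. An exact two-sided permutation test over the 70 groupings of the arrays gave p = 0.0286, the smallest this design allows. Without WT 3 the difference was -1.93 and the adjusted p 0.000802 (limma), and over all alternatives the adjusted p was between 5.88e-08 and 0.462. Normexp, the background correction that gave -0.68, adds an offset before the log.

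The other Crygc probe, A_55_P1955364, moved the same way with a smaller difference. Its normalized log2 signals were 5.39, 5.35, 5.23 and 5.61 on the Mrp4-null-labelled arrays. They were 5.90, 6.40, 5.47 and 5.98 on the WT arrays. WT 3 lay under Mrp4-null 4, so the groups overlapped at a single point. The log2 difference was -0.54 (SE 0.18, 95% interval -0.96 to -0.13), with an unadjusted p of 0.0167 and an adjusted p of 0.520 (limma), and the exact permutation p was 0.0571. With normexp the difference was -0.25. The 2 Crygc probes carry different RefSeq transcript accessions of the gene, and their fold differences, 2.89 and 1.46, were not tested against each other.

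Cryga and Crygd, the genes of gamma A and gamma D crystallin, gave no difference beyond the spread of the arrays. Cryga had normalized log2 signals of 5.58, 5.24, 5.40 and 5.60 on the Mrp4-null-labelled arrays and of 5.63, 6.02, 5.20 and 5.73 on the WT arrays. Crygd had 4.94, 5.12, 4.55 and 4.95 on the Mrp4-null-labelled arrays and 5.52, 5.89, 4.32 and 5.23 on the WT arrays. In both genes WT 2 was the highest and WT 3 the lowest of the 8 arrays, so the whole range lay within the WT group. The log2 difference of Cryga was -0.19 (SE 0.17, 95% interval -0.58 to 0.20, adjusted p = 1.00, limma), which leaves room for signals up to 1.49-fold lower or 1.15-fold higher on the Mrp4-null-labelled arrays. For Crygd it was -0.35 (SE 0.30, 95% interval -1.04 to 0.34, adjusted p = 1.00, limma). Without WT 2 these differences were -0.07 and -0.14, and without WT 3 they were -0.34 and -0.66.

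Crygs, which encodes gamma S crystallin, varied most. Its normalized log2 signals were 5.51, 5.39, 6.25 and 7.46 on the Mrp4-null-labelled arrays. On the WT arrays they were 7.68, 8.83, 6.42 and 7.05. Mrp4-null 4 lay above 2 of the WT arrays, and the range from Mrp4-null 2 to WT 2 was 3.44 log2 units. Means were 6.15 ± 0.95 and 7.50 ± 1.03 (SD, n = 4 each), a 2.54-fold higher signal on the WT arrays. The log2 difference was -1.34 (SE 0.59, 95% interval -2.68 to -0.01), with an unadjusted p of 0.0491 and an adjusted p of 0.770 (limma), and the exact permutation p was 0.114. Without WT 2 the difference was -0.90, and with normexp it was -0.85.

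With 1.5-fold and an adjusted p under 0.05 as thresholds, 0 of the 5 retained gamma crystallin probes were called changed by limma, where 0.545% of all retained probes were. At an unadjusted p under 0.05, 3 of the 5 were lower on the Mrp4-null-labelled arrays (both Crygc probes and Crygs), against 2.94% of all retained probes. WT arrays lay wholly above the others for 1 of the 5, Crygc A_55_P1975275, and for 2.36% of all retained probes measured on every array. By size alone, 2 of the 5 were at least 1.5-fold lower, against 0.801% of all. The local pooled error test named in the methods, which borrows its variance from probes of like intensity, called 2 of the 5 lower, Crygc A_55_P1975275 (adjusted p = 5.88e-08) and Crygs (adjusted p = 2.78e-06), where it called 0.345% of all retained probes lower. The spread of these 2 probes exceeded that of 97.6% and 99.8% of all retained probes, and the test does not use it. On simulated data the same test gave 192 false calls. Over all alternatives the adjusted p of Crygs was between 2.78e-06 and 1.00. All 5 differences were under 0, with a median of -0.54, where 53.2% of all retained probes were under 0 with a median of -0.0093. The direction was not independent between the probes, since they were correlated over the arrays as described next.

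**Figure D2:**
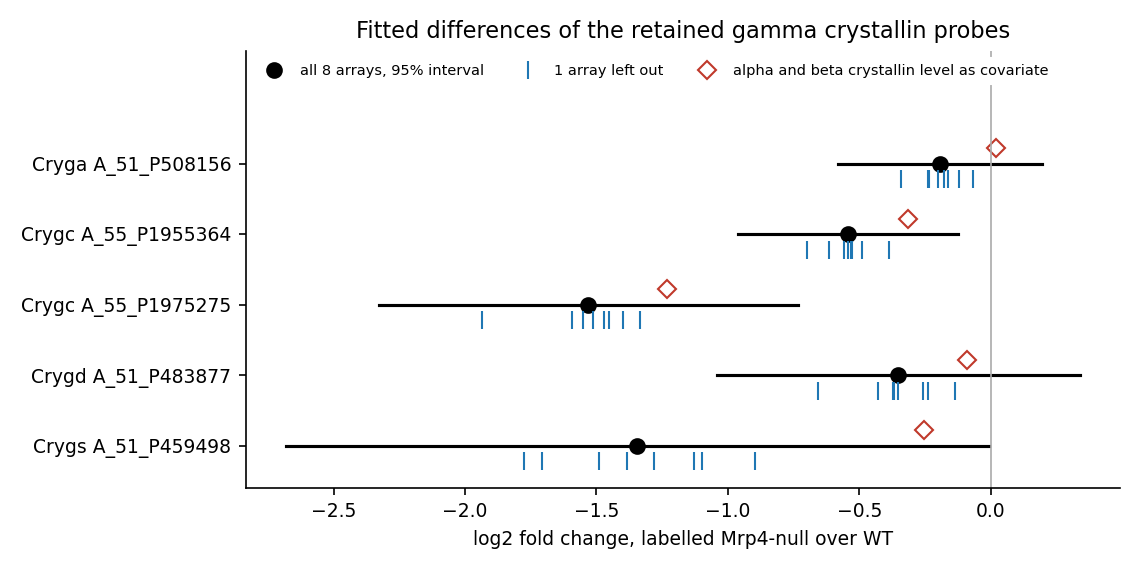
Fitted log2 fold change (Mrp4-null-labelled arrays over WT) of the 5 retained gamma crystallin probes, with the 95% interval of the limma fit (black), the fits that leave out 1 array each (blue ticks) and the fit with the alpha and beta crystallin level as a covariate (red diamonds). All black points lie under 0, the intervals of Cryga and Crygd reach past 0, and with the covariate Crygs moves from -1.34 to -0.25 whereas Crygc A_55_P1975275 moves from -1.53 to -1.23.

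Spread within the genotypes was wide for the gamma crystallins. The SD pooled over the genotypes was 0.27 for Cryga, 0.29 for Crygc A_55_P1955364, 0.58 for Crygc A_55_P1975275, 0.50 for Crygd and 0.99 for Crygs. The median over all retained probes was 0.19 and the 95th percentile 0.49, so 3 of the 5 lay above that percentile. Crygs varied more than 99.8% of all retained probes. WT 2 was the highest array for all 5 probes and also for Crygb and Crygn.

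Gamma crystallin probes were positively correlated over the 8 arrays. All 10 pairs of the 5 retained probes had a positive Pearson correlation, between 0.656 and 0.894 with a median of 0.798. After adjustment over the 10 pairs, 7 passed by Pearson's r and 0 by Spearman's rho, of which 5 had an unadjusted p under 0.05 and which was between 0.50 and 0.857 (exact permutation tests over 40320 pairings). The closest pair was the 2 Crygc probes (r = 0.894, adjusted p = 0.0204, rho = 0.667, adjusted p = 0.119, exact permutation test, n = 8). For Cryga and Crygc A_55_P1955364 the values were r = 0.861 (adjusted p = 0.0204) and rho = 0.833 (adjusted p = 0.0513, exact permutation test, n = 8). For Crygc A_55_P1955364 and Crygs they were r = 0.881 (adjusted p = 0.0204) and rho = 0.857 (adjusted p = 0.0513, exact permutation test, n = 8). When each genotype was centred on its own mean, r was between 0.499 and 0.924 with a median of 0.767. All 10 pairs rose together over the 4 WT arrays and 5 of the 10 over the 4 Mrp4-null-labelled arrays, too few arrays for a correlation to be given. The centred values rest mainly on the WT arrays, over which the chromosome 1 probes ranged by 0.82 to 1.77 log2 units, against 0.33 to 0.57 over the Mrp4-null-labelled arrays. Within the latter, Cryga, Crygc A_55_P1955364 and Crygs were highest on Mrp4-null 4, where Crygc A_55_P1975275 was lowest, and Crygd was highest on Mrp4-null 2. The joint movement also leaned on WT 2. Without the 2 arrays farthest from the median of the first probe of a pair, which included WT 2 in every pair, r was between 0.330 and 0.808. With WT 2 alone left out, the median r was 0.647 and 0 pairs passed. With Mrp4-null 3 left out, 3 pairs passed although the median r was 0.785, near that of all arrays. Cryga, Crygc and Crygd are closely related and the probe sequences were not among the sources used here, so signal from 1 of these genes on the probe of another cannot be told apart from joint expression.

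**Figure D3:**
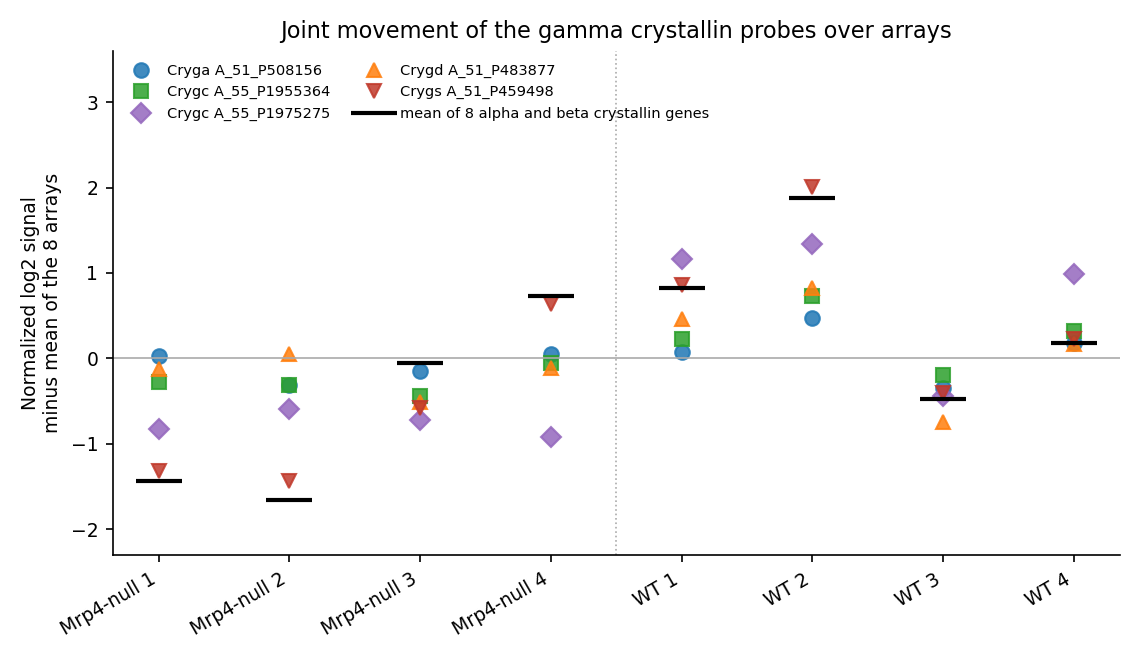
Normalized log2 signal of each retained gamma crystallin probe minus its mean over the 8 arrays, by array, with the mean of 8 alpha and beta crystallin genes as black bars; Mrp4-null-labelled arrays stand left of the dotted line and WT arrays right of it. WT 2 is the highest array for all 5 probes, Crygs rises and falls with the black bars, and on Mrp4-null 4 the bar and Crygs lie above 0 while Crygc A_55_P1975275 lies lowest.

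Crygs was closely correlated with the alpha and beta crystallins. The correlations of the chromosome 1 probes with them did not pass after adjustment, and whether they differ from that of Crygs was not tested. The mean normalized log2 signal of the 8 alpha and beta crystallin genes was 8.25, 8.03, 9.63 and 10.41 on the Mrp4-null-labelled arrays and 10.51, 11.56, 9.21 and 9.86 on the WT arrays. Over the 8 arrays it correlated with Crygs at r = 0.981 (adjusted p = 0.00124) and rho = 0.976 (adjusted p = 0.00397, exact permutation tests, n = 8). With each genotype centred r was 0.977, and without Mrp4-null 2 and WT 2 it was 0.959. The 10 relations of this family set each of the 5 probes against the alpha and beta level and against the 75th percentile of the array. For Crygc A_55_P1955364 the correlation with the alpha and beta level was 0.796 (adjusted p = 0.0893), for Cryga 0.751 (adjusted p = 0.103), for Crygc A_55_P1975275 0.664 (adjusted p = 0.165) and for Crygd 0.562 (adjusted p = 0.242), each by an exact permutation test (n = 8). Against the 75th percentile of the array, the overall brightness, the lowest adjusted p was 0.165 (exact permutation test). With each genotype centred, r against this brightness was between 0.460 (Crygc A_55_P1975275) and 0.794 (Cryga), and 0.712 for Crygs. Not centred and without Mrp4-null 2 and WT 3, it was between -0.340 and 0.057. The alpha and beta level moved with the genotype as well as with the array, and whether lens RNA in the samples set any of these values was not tested.

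**Figure D4:**
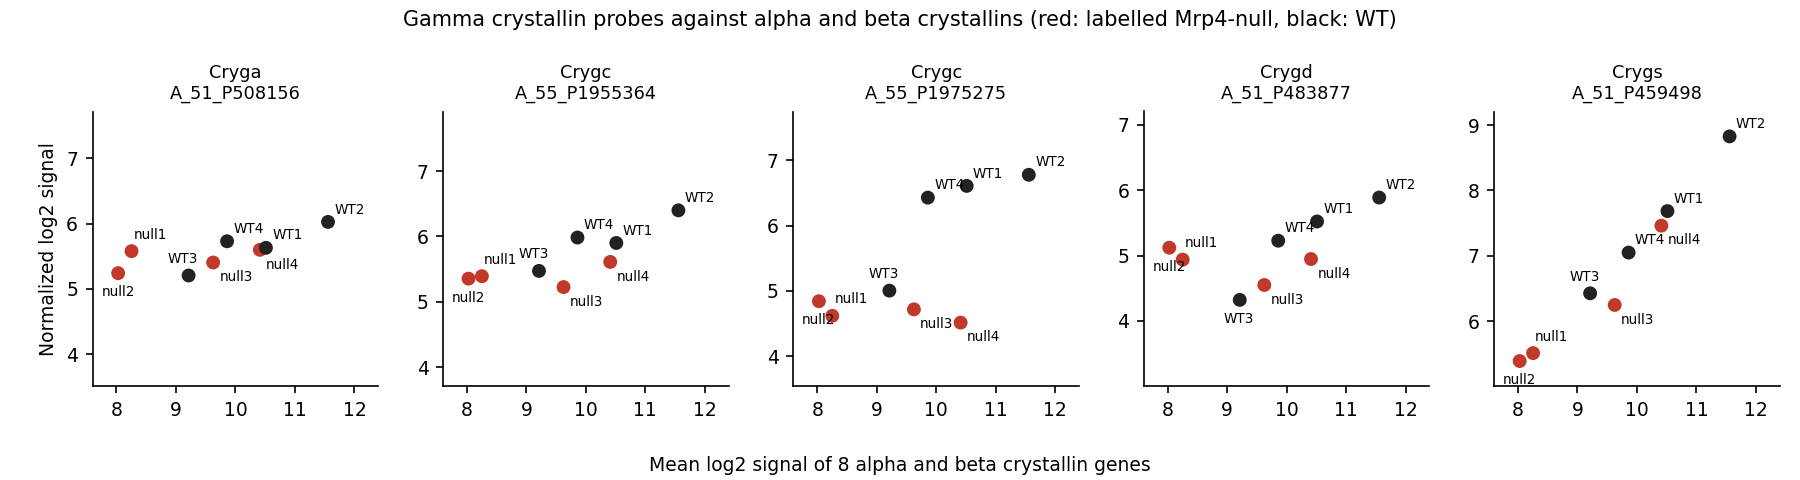
Normalized log2 signal of each retained gamma crystallin probe against the mean log2 signal of 8 alpha and beta crystallin genes, 1 point per array, with Mrp4-null-labelled arrays in red and WT arrays in black and the same span of log2 units on each vertical axis. Crygs lies along a single rising line through both genotypes (r = 0.981), whereas in Crygc A_55_P1975275 the 4 red points stay between 4.51 and 4.84 while the alpha and beta level goes from 8.03 to 10.41.

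The difference between Crygs and the other probes was itself compared with the alpha and beta level. Crygs itself correlated with that level at r = 0.981. It ranged over 3.44 log2 units, against 0.82 (Cryga) to 2.26 (Crygc A_55_P1975275) for the others. The differences therefore follow Crygs in large part and are no separate evidence. Crygs minus Cryga rose with the alpha and beta level (r = 0.973, adjusted p = 0.000546), as did Crygs minus Crygc A_55_P1955364 (r = 0.989, adjusted p = 0.000198) and Crygs minus Crygd (r = 0.938, adjusted p = 0.00126, exact permutation tests over 4 relations, n = 8). The rank correlations (Spearman) were 0.952, 0.976 and 0.905 in that order, and without Mrp4-null 2 and WT 2 r was 0.949, 0.974 and 0.870. Crygs minus Crygc A_55_P1975275 did not pass (r = 0.611, rho = 0.619, adjusted p = 0.107, exact permutation test, n = 8). With each genotype centred its r was 0.815, against 0.911 to 0.985 for the other differences. Raw signals were 16.6 to 125 for the Cryga, Crygc and Crygd probes and 36.1 to 536 for Crygs, so the former lay nearer to background, and the part of this in their flatter slopes was not tested.

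A fit with the alpha and beta level as a covariate was added after these values were seen. In it, Crygs rose by 0.90 log2 units for each log2 unit of the alpha and beta level (SE 0.08, adjusted p = 0.0133, limma), and its difference between genotypes was -0.25 (SE 0.17). Only 0.0297% of all retained probes, which is 11 probes, had such a rising slope with an adjusted p under 0.05. Of these, 7 were the probes of the covariate itself, and the remainder were a second probe each of Cryaa and Crybb2, 1 probe without a gene name, and Crygs. Crygs was thus the 1 gamma crystallin among the 5 retained probes with a called slope. The slopes of the other probes were also above 0, from 0.18 (Cryga) to 0.25 (Crygc A_55_P1975275), with adjusted p of 0.477 to 0.519 (limma). The difference of Crygc A_55_P1975275 in this fit was -1.23 (SE 0.39, unadjusted p = 0.0146, adjusted p = 0.454, limma). Those of the other probes were -0.32 for Crygc A_55_P1955364, -0.09 for Crygd and 0.019 for Cryga. None of the 5 was called lower, where 0.197% of all retained probes were, and Crygc A_55_P1975275 was the 1 of the 5 lower at an unadjusted p under 0.05, against 3.81% of all retained probes in this fit. Mrp4-null 3 and Mrp4-null 4 had WT arrays of like alpha and beta level, which are set side by side here. Mrp4-null 4 (10.41) was nearest to WT 1 (10.51), with Crygs at 7.46 and 7.68 and Crygc A_55_P1975275 at 4.51 and 6.61. Mrp4-null 3 (9.63) was nearest to WT 4 (9.86), with Crygs at 6.25 and 7.05 and Crygc A_55_P1975275 at 4.72 and 6.43. The next nearest to Mrp4-null 3 was WT 3 (9.21), which differed little from it in Crygs (6.42) and in Crygc A_55_P1975275 (5.00).

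Other crystallins and lens genes gave the setting for these values. Both alpha crystallin genes and all 6 beta crystallin genes were lower on the Mrp4-null-labelled arrays, with medians of -0.89 and -1.39 log2 units against -0.0093 over all retained probes, and 0 of the 8 were called or reached an unadjusted p under 0.05 by limma. Cryaa differed by -1.44 (SE 0.77) and Cryab by -0.34 (SE 0.25). Of the beta crystallins, Cryba1 differed by -1.50 (SE 0.86), Cryba2 by -1.55 (SE 0.76) and Crybb2 by -1.40 (SE 0.75). As in the gamma crystallins, WT 2 was the highest array for each of these 5 genes.

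The lens fibre list holds genes of the membrane, cytoskeleton and enzymes of the fibre cell, and also Tdrd7, Hspb1 and Lenep. Probes were retained for 10 of its 14 genes. Of these, 8 were lower on the Mrp4-null-labelled arrays, with a median of -0.99, or 7 of 9 with a median of -0.60 when Mip, described below, is left out. An unadjusted p under 0.05 was reached by 3 of the 10, all lower, where 2.94% of all retained probes were lower at that p, and 0 were called by limma. The 7 genes other than Tdrd7, Hspb1 and Lenep were all lower, a split that was not planned. Fitted values ran from -0.44 (Lctl) to -1.63 (Lim2) in 6 of them, and the arrays of Bfsp2 (-1.38) did not overlap. Mip, the gene of the main membrane protein of lens fibres, was well above background on 4 WT arrays but on 2 of the Mrp4-null-labelled ones, so no value is given for it. The 3 brightest genes of the list gave small differences. Tdrd7, which encodes an RNA granule protein, differed by -0.07 (SE 0.11), Hspb1, a small heat shock protein made in many tissues, by 0.19 (SE 0.10), and Lenep by 0.02 (SE 0.09). Transcription factors known to act on lens crystallin genes were retained for 8 of 10 genes, with 5 lower, a median of -0.04, 0 with an unadjusted p under 0.05 and 0 called. Among them Pax6 differed by -0.05 (SE 0.10), Prox1 by 0.07 (SE 0.08) and Six3 by 0.13 (SE 0.32). By the local pooled error test, 11 of the 18 retained genes of the alpha, beta and fibre lists were called, all 11 lower and Mip among them (10 of 17 without it), where that test called 0.345% of all retained probes lower and 0.647% in either direction. As stated above, that test does not use the spread of a probe itself.

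Markers of the cells that a retinal sample could hold were read on the same arrays. All 9 retina markers (photoreceptor, bipolar and Muller glia genes) were retained, with a summed level of 539872 to 582890 on the Mrp4-null-labelled arrays and 544258 to 562711 on the WT arrays. Of 8 lens fibre markers 6 were retained, all 6 lower on the Mrp4-null-labelled arrays, with summed levels of 258 to 1065 there and 494 to 2393 on the WT arrays (255 to 769 and 462 to 2009 without Mip), and Gja3 was among those not retained. These markers are also genes of the lens fibre list above, without Tdrd7, Hspb1 and Lenep, so they are no separate evidence. The summed levels of lens epithelium markers (2 of 3 retained) were 35.5 to 42.3 and 25.6 to 56.0, and those of corneal markers (3 of 3) were 364 to 547 and 357 to 516. Pigment epithelium markers (4 of 5) reached 1898 to 2658 and 1720 to 2536, pigment cell markers (5 of 5) 936 to 1685 and 746 to 1479, and ciliary epithelium markers (4 of 4) 22851 to 23233 and 22437 to 25137. Optc of the ciliary list differed without overlap, with the higher signals on the Mrp4-null-labelled arrays (1.53 log2 units, SE 0.34, adjusted p = 0.158, limma), as did 2.44% of all retained probes measured on every array in that direction. The other ciliary markers, Aqp1, Slc4a4 and Otx1, differed by -0.08 to 0.05. In bulk tissue, fewer cells of a type and less RNA per cell cannot be told apart, and the part of the lens fibre markers in the gamma crystallin values was not tested.

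The 10 genes outside the family whose pattern was most like the mean standardized gamma crystallin signal, out of 16086 genes over 8 arrays, were led by Nradd (r = 0.953), Lct (r = 0.950) and Coa7 (r = 0.942). M1ap, Ppp4r1l-ps, Sec16a, Ttc25, Aamdc, Bfsp2 and Fthl17e followed, with r between 0.927 and 0.939. Bfsp2, the gene of the lens fibre filament protein phakinin, was the 1 lens gene among them, at its probe A_52_P530082. Of the other lens genes, Lctl ranked 14, Lim2 132 and Cryaa 382, whereas Tdrd7 (3205), Lenep (9675) and Hspb1 (15614) ranked far lower. With so many genes and 8 arrays, high correlations arise in number, and these values are a description of the arrays. The differences of the 10 genes were between -1.40 (Bfsp2, SE 0.39) and -0.13 (Sec16a, SE 0.08), and none was called.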

How the data were processed

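Retinal RNA from 4 samples of each genotype, grouped by their genotype labels, was measured on one-color Agilent arrays. The authors deposited the scanner output of Agilent Feature Extraction 11.0.1.1, whose processed signal intensity was background-subtracted but not normalized between arrays, and a table of values that holds the same intensity per probe. The members and gene lists were chosen with earlier results of these data known. Genes were named through RefSeq accessions, which matched 32994 of 56605 probes (58.3%).

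Control and outlier spots were left out, and the log2 intensity was averaged per probe. Probes were retained when all measured arrays of a genotype (3 or more, with 2 or more in the other) showed them well above background, and were quantile normalized. Genotypes were compared with limma 3.58.1 in R 4.3.3, with Benjamini-Hochberg adjustment over the 37085 retained probes. The local pooled error test was written for this work. The 8 arrays shared 1 slide on which the genotypes filled separate rows, so row and genotype cannot be told apart. Arrays of a genotype correlated at 0.982 to 0.997, and arrays of different genotypes at 0.981 to 0.996. The number of arrays limits the precision. The detection limit of a dim probe on an array was the higher of its own signal and the lowest signal well above background.

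Named genes were the members, Abcc4, the 3 brightest genes of each lens list, any called gene and the 10 genes most like the family. Genes named beyond that rule (the ciliary markers, Gja3, and Lctl, Lim2, Mip and Bfsp2 of the fibre list) were chosen after their values were seen. Tried as alternatives were the 75th percentile shift, normexp with an offset of 50, 2 other filters, the deposited table, the replicate number as a block, an intensity trend, the local pooled error test and each array left out. The covariate was added after the data were seen. The normexp correction used the median signal of a spot, since that is the column the scanner files hold. On data simulated for this comparison (37075 probes), limma recovered 78% of log2 changes of 1 and 89% of those of 2, with 9 false calls. For the local pooled error test these shares were 83% and 100%, with 192 false calls. Recovery at the spread of the gamma crystallin probes was not tested. The median of their SD pooled over the genotypes was 0.50, against 0.19 over all retained probes.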

Additional observations from a re-analysis of the deposited data

How the results depend on the processing

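The 5 retained gamma crystallin probes stayed lower on the Mrp4-null-labelled arrays under every scaling and filter tried and with any 1 array left out. The exception was the covariate fit, in which the difference of Cryga was 0.019 and 4 of 5 were lower. Without a filter, 8 of 9 fitted differences were under 0, a count that includes Crygf, for which no array was above background. The local pooled error test called 2 gamma crystallin probes and 11 other lens genes, where limma called 0 of each, and the cause was not tested. With single arrays left out, the gamma crystallin probes called by limma were 0 to 1 (Crygc A_55_P1975275 without WT 3), the other lens genes 0, and the pairs that moved together 0 to 8. Normexp gave the smallest median difference over the scalings, -0.25 against -0.54.

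Replicate numbers did not pair the samples. Arrays of the same number correlated at -0.29, -0.69, 0.03 and 0.41 in their deviations from the group means, and 1 of 8 arrays was closest to its own number. With the replicate number as a block, 0 gamma crystallin probes and 0 other lens genes were called, the median difference stayed -0.54, all 5 were lower, and 71 of all probes were called in place of 202. The local pooled error test called 240 of all probes. Cryge and Crygf were never well above background, so a difference in them was not detectable with these arrays.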
